A study of Sus scrofa with 6 samples.

Results

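The small heat shock protein genes HSPB1, HSPB7, HSPB8 and CRYAB (Entrez gene IDs 493184, 100627988, 100155338 and 100519789) were followed across left atria of 6 male Lanyu miniature pigs, with 1 porcine Affymetrix array per animal. Every probe set (a group of probes read as 1 value) that the platform annotation assigns to 1 of these 4 symbols and to no other gene was taken. This gave 5 of the 23999 probe sets that remained after control probe sets were set aside, namely 1 each for HSPB1, HSPB7 and HSPB8 and 2 for CRYAB. All animals were 18 months old. MRV pigs had mitral regurgitation, in which blood leaks back into the atrium, made by cutting a hole of 2.8 mm in the middle scallop of the posterior leaflet. They received 3.43 mg/kg of valsartan, an angiotensin II receptor blocker, each day starting 1 week before surgery, and were killed 12 months after it. MR pigs had the same lesion and the same interval without valsartan. NC pigs were age-matched normal controls, for which no surgery is recorded, so the lesion and the operation that made it cannot be told apart against NC. Each group held 2 animals.

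Small heat shock proteins are chaperones that need no ATP. They share an alpha-crystallin domain, assemble into oligomers and hold unfolding proteins until the HSP70 system refolds them or autophagy removes them. Heart muscle holds large amounts of several of them at the Z-disc, the sarcomere and the desmin filaments, where they protect contractile and cytoskeletal proteins under mechanical, oxidative or heat stress. Alpha-B crystallin, the product of CRYAB, binds desmin and titin, and variants of it cause desmin-related myopathy in humans. HSPB1 (HSP27) binds actin filaments and is phosphorylated by kinases downstream of p38. HSPB7 is largely restricted to heart and skeletal muscle and binds filamin C. HSPB8 (HSP22) works with the co-chaperone BAG3 in the autophagic removal of damaged Z-disc proteins.

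Values are the deposited linear intensities, and no level of one probe set is set against that of another, because probes differ in brightness. Array medians lay between 90.2 and 93.4. Differences were fitted on log2(intensity + 16) with limma over 14399 probe sets, and all 5 small heat shock protein probe sets passed the filter on dim values. Over those 14399 log2 values, Pearson r was 0.959 between NC1 and NC2, against 0.981 within MRV and 0.981 within MR. NC2 was closer to MRV2 (0.984) than to NC1. The NC animals were thus the least alike pair within a group, and every comparison with NC rests on them. The standard errors (SE), 95% confidence intervals and p-values below come from that fit, with p-values adjusted by Benjamini-Hochberg over all tested probe sets and a threshold of 0.05. With 2 animals per group, an exact two-sided permutation test of 1 gene cannot go below p = 0.333, and precision is limited by the small number of arrays. Of 5 atrial markers with a probe set, 4 passed the filter, and 2 read high on every array: NPPA, the atrial natriuretic peptide gene, lay between 18414 and 20170, and MYL4, an atrial myosin light chain gene, between 21034 and 21842. SLN, which encodes sarcolipin, was at 5369 in MR1 and between 8530 and 10033 on the other 5 arrays. NR2F2, an atrial transcription factor gene, lay between 568 and 805, and KCNJ3 lay below the filter with a mean of 52.9. The annotation gave no single-gene probe set for the atrial markers MYL7 and TBX5. Of the leukocyte markers, 3 had a probe set, all below the filter. The ratio of 3' to 5' actin control signal, which increases as RNA degrades, was 2.30 and 1.87 in MRV, 1.44 and 1.70 in MR, and 1.61 and 1.91 in NC. The same ratio for the GAPDH control was 1.53 and 1.55 in MRV, 1.53 and 1.57 in MR, and 1.56 and 1.59 in NC. MRV and MR overlapped in the GAPDH ratio, so this second control did not show the difference seen with actin. The 28S ribosomal RNA control read 341 and 559 in MRV, 187 and 280 in MR, and 117 and 468 in NC. MRV and MR did not overlap in it, and the 2 NC animals lay far apart.

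In atria with untreated regurgitation the 4 genes did not shift one way. HSPB7 stood higher in MR than in NC, HSPB1 and HSPB8 stood lower, and the brighter CRYAB probe set was slightly higher. None of the 5 probe sets passed the threshold in MR minus NC with limma (0 of 5, every adjusted p = 0.999955), where 0.00694% of all probe sets passed. An unadjusted p under 0.05 was reached by 3 of the 5, against 4.03% of all probe sets. The arrays of the groups did not overlap for 4 of the 5, with 2 higher and 2 lower in MR, against 26.8% of all probe sets (14.3% higher and 12.5% lower). The genes and the lists below were chosen with earlier results of these data known. A share above that of all probe sets, here or below, therefore cannot be read as an excess over chance. CRYAB also counts 2 times among the 5. The 1 probe set past the threshold over the whole array was that of ASNS, a gene of amino acid synthesis that is not a small heat shock protein.

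HSPB7 had intensities of 3533 and 2823 in MR, against 2190 and 2080 in NC. Both MR animals lay above both NC animals, with a wider gap between the 2 MR animals than between the 2 NC animals. The means were 3178 ± 502 in MR and 2135 ± 77.9 in NC (SD, n = 2 each), a ratio of 1.49. The log2 difference was 0.56 (SE 0.15, 95% interval 0.20 to 0.92, limma adjusted p = 0.999955, unadjusted 0.0091). By unadjusted p, HSPB7 ranked 106 of 14399 in this comparison. The difference was 0.40 without MR1 and 0.72 without MR2.

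HSPB1 stood at 5439 and 5492 in MR, against 7007 and 7096 in NC. The animals of each group lay close together and the groups were well apart. The MR mean of 5465 ± 37.5 was 0.775 times the NC mean of 7052 ± 62.8 (SD, n = 2 each). The log2 difference was -0.37 (SE 0.13, 95% interval -0.69 to -0.040, limma adjusted p = 0.999955, unadjusted 0.0336). HSPB8 showed the same order, with 2239 and 2184 in MR against 2872 and 2705 in NC. Its log2 difference was -0.33 (SE 0.10, 95% interval -0.58 to -0.083, limma adjusted p = 0.999955, unadjusted 0.0174), and the MR mean was 0.793 times the NC mean.

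The brighter CRYAB probe set gave 12201 and 11342 in MR, against 10854.0 and 10854.5 in NC. Both MR animals lay above the NC animals, which were almost equal. The log2 difference was 0.12 (SE 0.10, 95% interval -0.14 to 0.37, limma adjusted p = 0.999955), so a change of either sign lies within the interval. The dimmer CRYAB probe set gave 126 and 327 in MR, against 412.5 and 82.8 in NC, and the groups overlapped. On the linear scale its MR mean was 0.915 times its NC mean, while its log2 difference was 0.10 (SE 0.73, 95% interval -1.71 to 1.91).

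**Figure D1:**
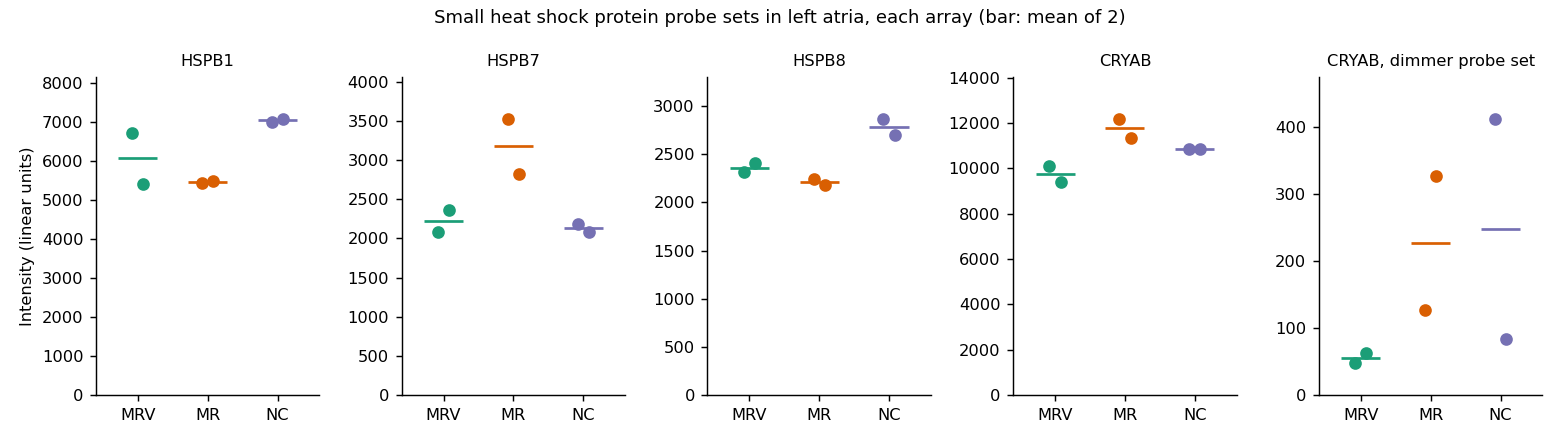
Linear intensity of the 5 small heat shock protein probe sets on each array, with MRV, MR and NC animals from left to right in each panel. Points are single animals and bars are means of 2. HSPB7 is highest in the MR animals (3533 and 2823), while HSPB1 and HSPB8 are highest in the NC animals, and the dimmer CRYAB probe set spreads widely within MR and NC.

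Valsartan-treated and untreated animals with regurgitation were compared next. HSPB7 and both CRYAB probe sets were lower in MRV, HSPB8 was slightly higher, and HSPB1 differed between the 2 MRV animals. None of the 5 passed the threshold with limma (adjusted p from 0.587 to 0.867), and 0% of all probe sets did. An unadjusted p under 0.05 was reached by 2 of the 5, against 7.27% of all probe sets. The arrays did not overlap for 4 of the 5, with 1 higher and 3 lower in MRV, against 42.4% of all probe sets (18.8% higher and 23.6% lower). This comparison and that of MR with NC share the MR animals, so opposite signs in the 2 are not independent.

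HSPB7 read 2082 and 2365 in MRV, against 3533 and 2823 in MR. Both treated animals lay below both untreated ones. The MRV mean of 2224 ± 200 was 0.700 times the MR mean of 3178 ± 502 (SD, n = 2 each). The log2 difference was -0.51 (SE 0.15, 95% interval -0.87 to -0.15, limma adjusted p = 0.587, unadjusted 0.0142). Adding the actin ratio, which did not overlap between MRV and MR, to the fit brought it to -0.22, and leaving out MR1 brought it to -0.35. With the 28S control in place of the actin ratio, the difference was -0.47.

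The brighter CRYAB probe set read 10099 and 9406 in MRV, against 12201 and 11342 in MR, again without overlap. Its log2 difference was -0.27 (SE 0.10, 95% interval -0.53 to -0.012, limma adjusted p = 0.670, unadjusted 0.0428). The dimmer probe set gave 48.3 and 62.2 in MRV, against 126 and 327 in MR, and its log2 difference was -1.64 (SE 0.73, 95% interval -3.45 to 0.17, limma adjusted p = 0.709). The MRV values of the dimmer probe set lie near the filter intensity of 60.8. Averaging both CRYAB probe sets gave a log2 difference of -0.95 in place of -0.27. With the 28S control in the fit, the brighter probe set gave -0.25 and the dimmer one -1.01.

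HSPB8 read 2318 and 2408 in MRV, against 2239 and 2184 in MR. The groups did not overlap but lay close, and the log2 difference was 0.095 (SE 0.10, 95% interval -0.15 to 0.34). HSPB1 read 6730 and 5419 in MRV, against 5439 and 5492 in MR. The 2 treated animals lay on either side of the MR animals, and the log2 difference of 0.14 (SE 0.13, 95% interval -0.18 to 0.47) became -0.012 without MRV1 and -0.053 when the actin ratio entered the fit.

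Setting MRV beside NC shows where treated animals with regurgitation stood relative to animals without it. In this comparison 1 of the 5 probe sets had a higher and 4 a lower mean log2 value in MRV. None passed the threshold with limma (adjusted p from 0.905 to 0.977, 0 of 5 at an unadjusted p under 0.05, against 5.29% of all probe sets), and 0% of all probe sets passed. The arrays did not overlap for 4 of the 5, all lower in MRV, against 33.1% of all probe sets (15% higher and 18.1% lower). HSPB7 averaged 2224 ± 200 in MRV and 2135 ± 77.9 in NC (SD, n = 2 each), and the groups overlapped. Its log2 difference of 0.056 (SE 0.15) had a 95% interval from -0.31 to 0.42, and was -0.035 without MRV2. HSPB8 averaged 2363 ± 63.4 in MRV and 2789 ± 118 in NC, a log2 difference of -0.24 (SE 0.10, 95% interval -0.49 to 0.012). HSPB1 averaged 6075 ± 927 in MRV and 7052 ± 62.8 in NC (log2 difference -0.22, SE 0.13), and this was -0.38 without MRV1 and -0.067 without MRV2. The brighter CRYAB probe set averaged 9752 ± 490 in MRV and 10854 ± 0.354 in NC (log2 difference -0.16, SE 0.10). The dimmer one, also among the 4 lower probe sets, gave 48.3 and 62.2 in MRV against 412.5 and 82.8 in NC. Its log2 difference was -1.54 (SE 0.73, 95% interval -3.35 to 0.28), with MRV values near the filter intensity, so CRYAB counts 2 times among the 4.

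**Figure D2:**
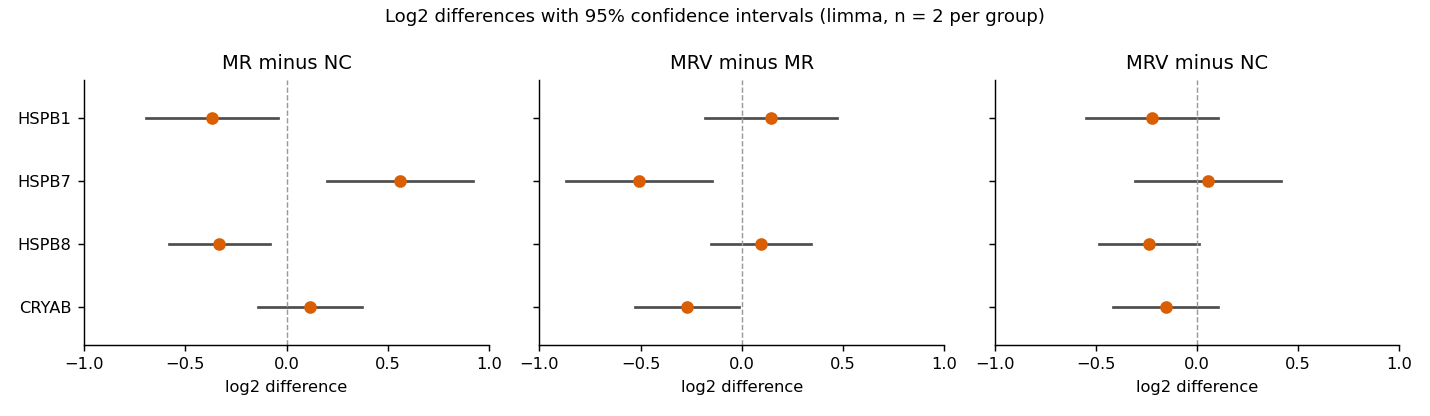
Log2 differences of HSPB1, HSPB7, HSPB8 and the brighter CRYAB probe set in the 3 comparisons (horizontal axis, log2 units), with 95% confidence intervals from limma as lines and n = 2 per group. In MR minus NC the intervals of HSPB7 (0.20 to 0.92), HSPB1 and HSPB8 leave out 0 before adjustment for multiple tests, and in MRV minus NC every interval includes it.

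Ordered by group mean, HSPB7 ran from MR through MRV to NC, and MRV and NC overlapped. HSPB1 and HSPB8 both ran from NC through MRV to MR. For HSPB1 the MRV and MR animals overlapped, and for HSPB8 all 3 groups were apart. The brighter CRYAB probe set ran from MR through NC to MRV with all 3 groups apart. The spread over the 6 animals was small for these genes, with the highest animal 1.70 times the lowest for HSPB7, 1.31 times for both HSPB1 and HSPB8, and 1.30 times for CRYAB. The dimmer CRYAB probe set spread 8.54-fold over the same RNA.

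Ratios between genes on the same array show how unequally they differed, since any effect common to a whole array cancels in them. The log2 ratio of HSPB7 to HSPB8 was -0.15 and -0.026 in MRV, 0.65 and 0.37 in MR, and -0.39 and -0.38 in NC. The shift between MR and NC was 0.89, and the MRV animals lay below both MR animals and above both NC animals. The ratio of HSPB7 to HSPB1 shifted by 0.93 between MR and NC and by -0.65 between MRV and MR, without overlap in either case. CRYAB over HSPB8 was 2.12 and 1.96 in MRV, 2.44 and 2.37 in MR, and 1.91 and 2.00 in NC. HSPB1 over HSPB8 was 1.53 and 1.17 in MRV, 1.27 and 1.32 in MR, and 1.28 and 1.39 in NC, and every pair of groups overlapped. These ratios are given as a description, and only their changes between groups can be read, since the absolute ratio of 2 probe sets has no meaning.

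**Figure D3:**
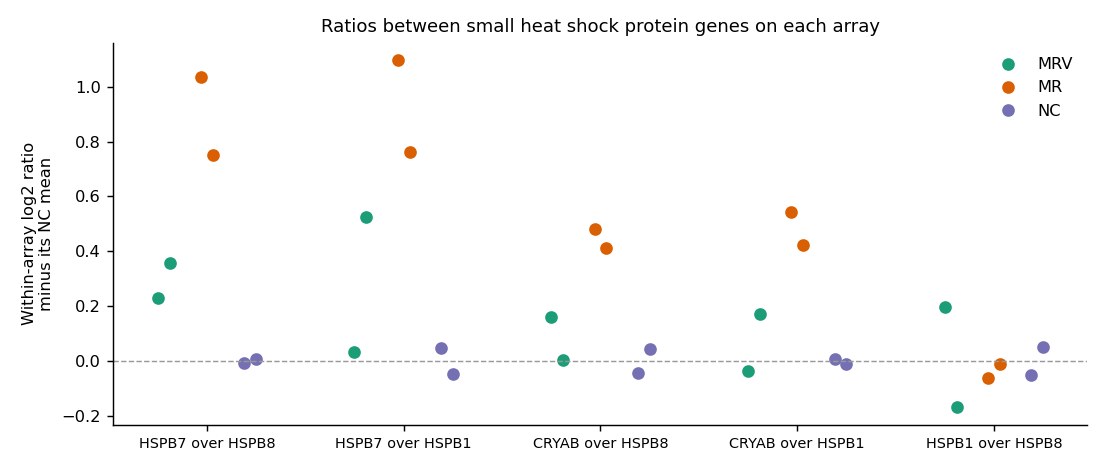
Within-array log2 ratios between pairs of small heat shock protein genes (vertical axis, log2 units, each shown minus its NC mean), with MRV, MR and NC animals from left to right for each pair. MR animals stand above NC animals in all ratios of HSPB7 or CRYAB to HSPB1 or HSPB8, by 0.89 for HSPB7 over HSPB8, while the groups overlap for HSPB1 over HSPB8.

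Of 7 other genes named or grouped as small heat shock proteins, 4 were measured above the filter: HSPB2, HSPB3, HSPB6 and HSPB11. HSPB2 and HSPB3 form a joint complex in muscle, HSPB6 (HSP20) is a substrate of protein kinase A in heart and smooth muscle, and HSPB11 is an intraflagellar transport protein despite its name. All 4 had higher mean log2 values in MR than in NC, as did 50.7% of all probe sets. Their median log2 difference was 0.21 against 0.0024 over all probe sets. HSPB11 differed little, at 0.043 (SE 0.16), and its groups overlapped. In MRV minus MR HSPB2, HSPB3 and HSPB6 were lower. HSPB11 showed no difference there (-0.0011, SE 0.16), with linear means of 430 in MRV and 428 in MR. The median of the 4 was -0.38 against -0.0055 over all probe sets, of which 48.7% were higher. With limma 0 of the 4 passed the threshold in either comparison. At an unadjusted p under 0.05 there were 0 in MR minus NC and 2 in MRV minus MR, against 4.03% and 7.27% of all probe sets. Taking these with the 4 genes above, 6 of 8 were higher and 2 lower in MR than in NC, and the 2 lower ones were HSPB1 and HSPB8. In MRV minus MR those 6 had lower and those 2 higher mean log2 values, with the MR animals again in both comparisons. The 6 include HSPB11, which showed no difference there. Against NC, 3 of the 8 were higher and 5 lower in MRV, where 49% of all probe sets were higher.

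HSPB3 read 1209 and 1266 in MRV, 1683 and 1824 in MR, and 1424 and 1519 in NC. Its 3 groups did not overlap, with MR highest and MRV lowest as for CRYAB. The log2 difference was -0.50 in MRV minus MR (SE 0.11, limma adjusted p = 0.505, unadjusted 0.00378) and 0.25 in MR minus NC (SE 0.11). HSPB6 read 790 and 724.5 in MRV, 1379 and 945 in MR, and 1034 and 996 in NC on its brighter probe set, a log2 difference of -0.58 in MRV minus MR (SE 0.19). Its dimmer probe set gave -0.16 there, and the 2 had opposite signs in MRV minus NC (-0.42 and 0.16). HSPB2 read 1308 and 1148 in MRV, 1631 and 1340 in MR, and 1252 and 1166 in NC. HSPB2 and CRYAB are neighbours whose spans overlap in the RefSeq gene table of Sscrofa11.1, and the dimmer CRYAB probe set carries the cluster number of the HSPB2 probe set. Its signal is therefore uncertain as a measure of CRYAB.

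Genes of other cell types moved with some of these values. The ventricular markers (3 of 4 with a probe set, MYL2, MYL3 and HEY2) summed to 8703 and 9369 in MRV, 21365 and 12734 in MR, and 8874 and 10454 in NC. Among them MYL2, which encodes a ventricular myosin light chain, was at 152 and 954 in MRV, 10693 and 2318 in MR, and 203 and 325 in NC. MYL3 read 8476 and 8316 in MRV, 10583 and 10329 in MR, and 8584 and 10061 in NC, with NC2 close to MR. HEY2 overlapped between MRV (74.8 and 98.2) and MR (88.5 and 86.4), so the ventricular markers did not all differ. MR1, the animal with the highest MYL2, was also the animal with the lowest SLN, the highest HSPB7 and the highest value of the brighter CRYAB probe set. The Schwann cell and neuron markers (4 of 7 with a probe set, S100B, SOX10, UCHL1 and GAP43) summed to 1128 and 1820 in MRV, 3032 and 2751 in MR, and 1918 and 2981 in NC. Most of that sum came from UCHL1 on every array, so it says little about glia, which are known to contain alpha-B crystallin. Of the glial genes, S100B read 391 and 519 in MRV, 612.5 and 601 in MR, and 536 and 482 in NC. SOX10 overlapped between MRV and MR. Adipocyte markers (6 of 8) summed to 2637 and 2525 in MRV, 4008 and 3475 in MR, and 4733 and 3780 in NC. NC1 was highest, and MR and NC overlapped. The cardiomyocyte markers (9 of 12) summed to between 111806 and 117523, but most of that sum came from bright probe sets such as MYH7 (20478 to 21652, where the highest value on any array was 27167). Dimmer members varied more. CASQ2, which encodes the calcium-binding protein calsequestrin, read 1474 and 1376 in MRV, 2716 and 1688 in MR, and 1972 and 1233 in NC. RYR2, the calcium release channel gene, read 3124 and 2900 in MRV, 4786 and 3343 in MR, and 4251 and 3411 in NC. Both were lower in MRV than in MR without overlap and highest in MR1. The brighter ACTN2 and TNNT2 were also lower in MRV without overlap. ACTC1, TNNI3 and CKM went the other way without overlap, with CKM at 11629 and 11288 in MRV against 11141 and 10237 in MR. For MYH7 and TTN the MRV and MR animals overlapped, so the cardiomyocyte markers did not shift one way. The part of these cell types in the differences of HSPB7 and CRYAB was not tested, and fewer cells of a type and less RNA per cell cannot be told apart in whole tissue.

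Partners of HSPB8 in chaperone-assisted autophagy had 11 of 13 genes measured. In MR minus NC 7 were higher and 4 lower (median 0.11), and in MRV minus MR 4 were higher and 7 lower (median -0.094). With limma 0 passed the threshold in either, and 1 and 2 genes had an unadjusted p under 0.05, against 4.03% and 7.27% of all probe sets. WIPI1, which binds phosphoinositides on forming autophagosomes, read 310 and 303 in MRV, 453 and 493 in MR, and 325.5 and 316 in NC. Its log2 differences were 0.54 in MR minus NC (SE 0.10) and -0.60 in MRV minus MR (SE 0.10). LAMP2, a lysosomal membrane protein gene, ran the opposite way to WIPI1, with 1951 and 2206 in MRV, 1444 and 1604 in MR, and 1877 and 1781 in NC. BAG3, the direct partner of HSPB8, read 2124 and 2393 in MRV, against 2755 and 2694 in MR (log2 difference -0.27, SE 0.13). HSPB8 was lowest in MR, the group in which BAG3 was above both MRV animals. In NC, BAG3 read 2301.5 and 2688, with NC2 close to MR2, and its log2 difference in MR minus NC was 0.13 (SE 0.13). The co-chaperone gene DNAJB6 had a log2 difference of -0.41 in MR minus NC (SE 0.24) and BAG1 one of -0.27 in MRV minus MR (SE 0.13). GABARAPL1, of the autophagosome membrane, read 315 in NC1 and between 657 and 971 on the other 5 arrays.

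The cytosolic heat shock response, which HSF1 drives, had 18 of 25 other genes measured. In MR minus NC 5 were higher and 13 lower (median -0.056), and in MRV minus MR 10 were higher and 8 lower (median 0.0050). With limma 0 passed the threshold in both, and 0 had an unadjusted p under 0.05, against 4.03% and 7.27% of all probe sets. The smallest p-values in MR minus NC belonged to HSPA4 at -0.31 (SE 0.17), the HSP40 gene DNAJB1 at -0.18 (SE 0.10), HSPA2 at 0.23 (SE 0.19) and HSP90AB1 at -0.15 (SE 0.13) on the log2 scale. In MRV minus MR the smallest p-value belonged to BAG3, also of this list, which was lower at -0.27 (SE 0.13). SERPINH1, the collagen chaperone, differed by 0.33 in MRV minus MR (SE 0.19), and the HSP90 co-chaperones FKBP4 and STIP1 by 0.19 (SE 0.12) and 0.15 (SE 0.11). HSPA1A and HSPA1B, the inducible HSP70 genes, were not measured by a tested single-gene probe set. The separate stress response of the endoplasmic reticulum had 14 of 18 genes measured, 6 higher and 8 lower in MR than in NC (median -0.032). ASNS passed the threshold there (log2 difference -2.06, SE 0.12, limma adjusted p = 0.0445), with 193 and 173 in MR against 779 and 852 in NC. ATF4, a transcription factor gene of that response, differed by -0.53 (SE 0.14) and DNAJB9 by -0.47 (SE 0.16) in MRV minus MR, where 9 genes were higher and 5 lower (median 0.067).

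Filament and sarcomere proteins that small heat shock proteins bind or sit beside had 14 of 19 genes measured. In MR minus NC 8 were higher and 6 lower (median 0.0094), and in MRV minus MR 3 were higher and 11 lower (median -0.15). With limma 0 passed the threshold in both, and 2 and 4 genes had an unadjusted p under 0.05, against 4.03% and 7.27% of all probe sets. NEBL, of the Z-disc, read 355 and 331 in MRV, 450 and 481 in MR, and 229 and 264 in NC, and its log2 difference was 0.88 in MR minus NC (SE 0.12). FHL1, a LIM protein gene, had a log2 difference of -0.94 in MRV minus MR (SE 0.13), and MYOT, the myotilin gene of the Z-disc, one of -0.83 (SE 0.16). XIRP1, an actin-binding gene of the intercalated disc, was -0.31 in MR minus NC (SE 0.11) and -0.42 in MRV minus MR (SE 0.11), and SYNM, a desmin partner, was -0.39 in MR minus NC (SE 0.18). Of the kinases upstream of small heat shock protein phosphorylation, 5 of 11 were measured. MAPK14 (p38 alpha) read 246 and 238 in MRV, 285.5 and 283 in MR, and 335 and 301 in NC. PRKD2 had a log2 difference of 0.21 in MR minus NC (SE 0.11). The median of the kinases was -0.0079 in MR minus NC and -0.17 in MRV minus MR, and 0 passed with limma in either, with 0 at an unadjusted p under 0.05. In MRV minus NC 2 of the 5 kinases were higher and 3 lower (median -0.10), 0 passed with limma, and 2 had an unadjusted p under 0.05, MAPK14 at -0.37 (SE 0.11) and MAPK12 at -0.34 (SE 0.13). In the same comparison, filament and sarcomere genes were higher for 3 and lower for 11 (median -0.12). XIRP1 was at -0.73 (SE 0.11), FHL1 at -0.66 (SE 0.13) and MYOT at -0.60 (SE 0.16), while NEBL was higher at 0.45 (SE 0.12). The heat shock response was higher for 8 and lower for 10 (median -0.012), led by DNAJB1 at -0.31 (SE 0.10). With limma 0 passed in both, and 4 and 1 had an unadjusted p under 0.05. Over all probe sets the share at that level in MRV minus NC was 5.29%, which is also the background for the kinases.

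**Figure D4:**
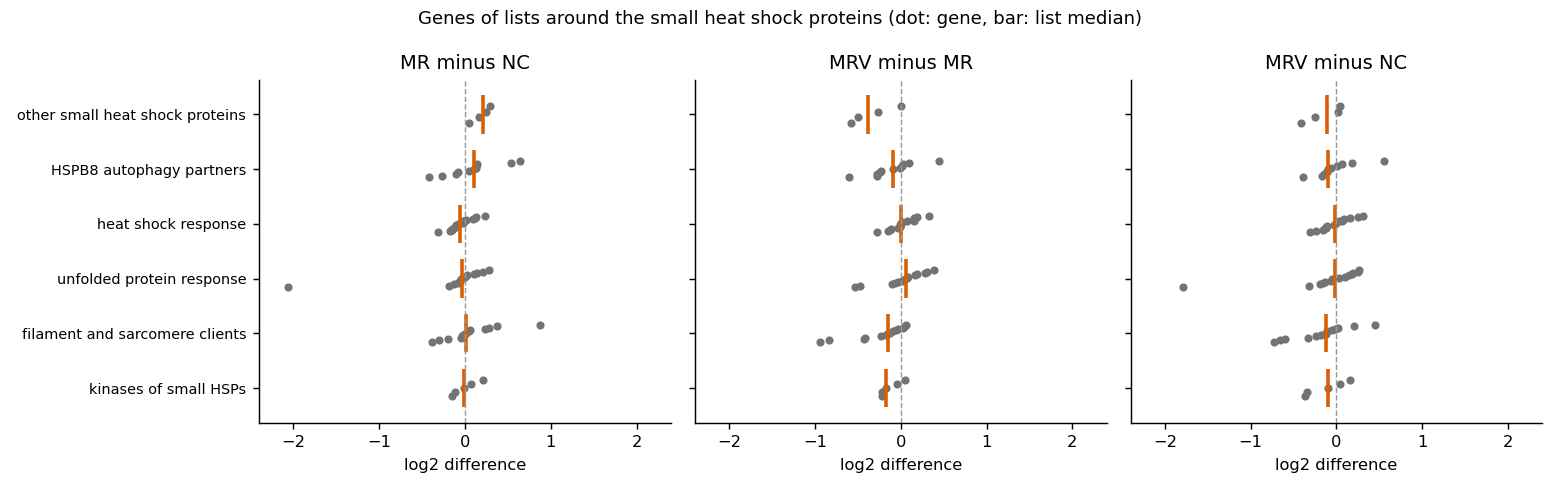
Log2 differences (horizontal axis, log2 units) of the measured genes of 6 lists in the 3 comparisons, with HSPB1, HSPB7, HSPB8 and CRYAB left out. Each dot is a gene and each bar the median of its list. The other small heat shock proteins have a median of 0.21 in MR minus NC and -0.38 in MRV minus MR, the heat shock response lies near 0, and the dot near -2 is ASNS.

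The genes whose log2 values followed each small heat shock protein most closely over the 6 animals were found among 5406 genes. With 6 arrays in 3 groups, many genes reach a high Pearson r, so these are descriptions. For HSPB7 they were SAMD4A (r = 0.98), PYCR1 (0.98), MYL2 (0.97), PALMD (0.97) and CHMP2B (0.97), among 72 genes with r above 0.9. SAMD4A read 1321 and 1615 in MRV, 2344 and 2028 in MR, and 1346 and 1411 in NC. For HSPB8 they were CERS4 (0.99), FECH (0.98), TSHZ1 (0.98), ITGA5 (0.97) and SERPINB1 (0.97). FECH, the last enzyme of haem synthesis, read 1096 and 1101 in MRV, 1068 and 1076 in MR, and 1218 and 1204 in NC. For HSPB1 they were GRPEL1 (0.97), PDSS1 (0.97), SDHB (0.96), RNF25 (0.96) and CLASP1 (0.95). For the brighter CRYAB probe set they were PIGX (0.99), ATAD1 (0.98), PSMD8 (0.98), EEF1G (0.98) and LOC100153598 (0.98). The dimmer CRYAB probe set followed other genes, TNXB (0.99), BHLHE40 (0.99), ANG (0.99), TMEM208 (0.98) and C7 (0.98), and shared none of the 5 with the brighter one. C7, a complement component gene, read 309 and 319 in MRV, 348 and 518.5 in MR, and 512 and 340 in NC, with MR2 and NC1 high as for that probe set.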

How the data were processed

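RNA of 6 left atria was measured on 1 Affymetrix array each. The deposited values are linear intensities per probe set, put on a like scale between arrays by the authors. Per the submitters' processing notes MAS5 and RMA were used, but the sources used here do not say which of them made the table. The 124 control probe sets were left out. Probe sets whose mean log2(intensity + 16) lay below the 40th percentile (intensity 60.8) were not tested, which left 14399. Groups were compared in R 4.3.3 by limma (version 3.58.1, lmFit, then eBayes) on all 6 arrays, with group means as the only terms (3 residual and 2.81 prior degrees of freedom). The fit was tested on simulated data. Symbols come from the platform annotation, and all 5 probe sets matched the RefSeq gene table by Entrez gene ID. Other genes were represented by their brightest tested probe set. The genes and lists were chosen with earlier results of these data known. Genes of a list were named if past the threshold, and otherwise up to 4 by smallest p per comparison; genes with a like pattern were the 5 with the highest r. Replicate numbers are only numbers in the titles. Same-numbered deviations correlated at 0.018 (MRV and MR), 0.21 (MRV and NC) and 0.34 (MR and NC), so they were not taken as pairs.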

Additional observations from a re-analysis of the deposited data

How the results depend on the processing

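Over 18 alternatives (pseudocount, filter, normalization, samples fitted, variance trend, replicate block, RNA quality covariates, averaging of probe sets, and leaving out each array), 0 of 264 values of small heat shock protein probe sets passed the threshold, and 6 turned sign, in 3 of 15 differences. Many of the 264 could not turn sign, because some alternatives leave the difference itself as it was. These are the filter, fitting only the 2 groups, the variance trend, the replicate block and leaving out an array of the third group. Averaging is another for genes with 1 probe set. HSPB1 in MRV minus MR was -0.053 when the actin ratio entered the fit and ran from -0.012 to 0.30 without single arrays. HSPB7 in MRV minus NC ran from -0.035 to 0.15 without single arrays. The dimmer CRYAB probe set in MR minus NC was -0.13 when that ratio entered the fit and ran from -0.96 to 1.16 without single arrays. HSPB7 kept its sign in MR minus NC (0.40 to 0.72) and in MRV minus MR (-0.67 to -0.22), and HSPB1 and HSPB8 kept theirs in MR minus NC (-0.39 to -0.29 and -0.37 to -0.29). Over all probe sets, the 1 call in MR minus NC, ASNS, became 0 with a pseudocount of 1, no filter, quantile normalization, median centring, only the 2 groups compared, a variance trend, the replicate block, either covariate, or without any 1 of the 6 arrays. In MRV minus MR the 0 calls became 2 with the replicate block and 1 with the 28S control as a covariate, and in MRV minus NC they became 2 with the filter at the 60th percentile. The replicate block left the 0 calls among small heat shock protein probe sets at 0. The cause of these shifts was not tested. Precision here is set by the small number of arrays.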
